A study of Homo sapiens with 3 samples.

Results

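The genes described are 7 antigens on the surface of prostate and other epithelial tumours that serve as targets of antibodies, radioligands or engineered T cells: CD276, FOLH1, STEAP1, STEAP2, PSCA, EPCAM and CEACAM5. They were chosen by name, from 43317 gene names on the array, after CD276 was seen to be lower in SPINK1-silenced cells. Their log2 ratios are therefore only described, and calls from a fit over all measured genes are no test of them. Of the 7 genes, 6 had a probe well above background and were measured, among 17061 measured genes in all, and CEACAM5 had none.

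22RV1 is a SPINK1-positive prostate cancer cell line. Cells were transduced with lentiviral hairpins and kept under puromycin, and 3 lines with a hairpin each against SPINK1 (shSPINK1-1 to shSPINK1-3, hairpins 1, 2 and 3) were compared with 22RV1 cells that carried a scrambled hairpin (shSCRM). Silenced cells therefore shared the transduction and the selection with their controls, and the sources used here do not say whether a line was 1 clone or whether the shSCRM RNA of the 3 arrays came from separate cultures. If it was 1 RNA, the 3 ratios share their control, and the SDs and p-values leave out the spread of the control. On each of 3 two-color Agilent arrays, RNA of 1 shSPINK1 line was labelled with Cy5 and RNA of shSCRM cells with Cy3. No array had swapped dyes, so a dye effect of a gene and an effect of a hairpin cannot be told apart. A log2 ratio is given throughout as shSPINK1 over shSCRM, after background correction with an offset of 50 and loess normalization within each array, and a mean ± SD is over the 3 arrays. The offset draws the ratios of dim spots towards 0, so for dim probes, those of related genes included, the log2 ratio that the scanner software gave is printed as well.

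The labels were checked with the targeted gene, and SPINK1 had log2 ratios of -3.71, -3.65 and -3.89 with hairpins 1, 2 and 3. All 9 markers of luminal prostate epithelium were measured, with a mean Cy3 brightness of 190 to 11500 and log2 ratios between -0.36 and 0.35. Of 15 markers of basal cells, fibroblasts, leukocytes and endothelium 7 were measured, at a Cy3 brightness of 40.7 to 187, and none of the 24 markers was called. Spots of 1 probe on the same array differed with an SD of 0.0587, 0.056 and 0.0593 on the log2 scale.

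CD276, also named B7-H3, is a transmembrane member of the B7 family of ligands, whose other members engage costimulatory or inhibitory receptors on T cells. FOLH1, or PSMA, is a folate hydrolase on the surface of luminal prostate cells and the target of PSMA radioligands. STEAP1 and STEAP2 are transmembrane proteins of a family of metalloreductases, PSCA is a small protein held to the membrane by a lipid anchor, EPCAM is an adhesion molecule of epithelia that can be cleaved at the membrane, and CEACAM5 is the carcinoembryonic antigen of intestinal tumours.

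The array held 11 probes for these genes, and 10 of them were well above background in a channel on all 3 arrays. The sequences of 2 probes of CD276 and 2 of FOLH1 are shown because the probes of each gene gave different readings, and that of a STEAP1 probe because its annotation also lists STEAP1B. They are the probe sequences of the deposited array files, printed 5′ to 3′, with the files' hg19 coordinates. For the brighter CD276 probe the last 30 of its 60 bases are given, and capitals mark the motif AATAAA, the usual polyadenylation signal. The other sequences are whole and have no capitals.
CD276, brighter probe, chr15:74006791-74006850, plus strand: gtatattttggggaaAATAAAtgtctttgt
CD276, dimmer probe, chr15:73996699-73996758, plus strand: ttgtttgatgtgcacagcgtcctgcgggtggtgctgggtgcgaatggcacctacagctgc
FOLH1, brighter probe, chr11:49168360-49168419, minus strand: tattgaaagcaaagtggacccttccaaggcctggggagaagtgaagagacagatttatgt
FOLH1, dimmer probe, chr11:49204702-49204761, minus strand: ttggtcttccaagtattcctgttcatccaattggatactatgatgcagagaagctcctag
STEAP1, dimmer probe, chr7:89790531-89790590, plus strand: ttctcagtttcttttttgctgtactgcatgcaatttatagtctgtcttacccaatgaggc

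Both CD276 probes lie on the transcript NM_001024736 of chromosome 15. The brighter probe starts at base 3332, beyond the coding part and close to the end of the message, and the dimmer probe starts 1844 bases upstream of it on the transcript, at base 1488, within the coding part. AATAAA, searched on the probe strand alone, stood in 7.85% of the 58201 gene probes, and in the brighter CD276 probe it began at base 46 of 60. The labels describe labelling that started from oligo(dT) after poly(A) tails had been added to total RNA.

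CD276 was lower in SPINK1-silenced cells by its brighter probe and not by its dimmer one. On the brighter probe the spots had a brightness of 1600, 1570 and 1630 in shSCRM cells and of 636, 720 and 704 in the cells of hairpins 1, 2 and 3. These values precede the balancing of the dyes, and Cy5 was the dimmer channel for every probe of the targets. After normalization the log2 ratios were -0.90, -0.58 and -0.61, with a mean of -0.70 ± 0.18 (SD, n = 3), and hairpin 1 gave the largest difference. In total RNA of a culture, fewer cells with CD276 and less CD276 RNA per cell cannot be told apart.

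By this probe, CD276 was called lower in the fit over all genes, in which a call by limma needed a mean log2 ratio beyond 0.5 with an adjusted p under 0.05. Of the 17061 genes 0.393% were called lower and 0.334% higher, and of the 6 measured targets CD276 alone was called, which is the pattern the genes were chosen for. Its mean was the 10th lowest of all measured genes. The neighbouring values in that order were -0.70 for SNRPB, just below it, and -0.69 for the transcript ENST00000472161, just above. With the scanner software's ratios the mean was -0.65 ± 0.20 and CD276 was not called, nor was it when both probes were averaged, at -0.31.

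The dimmer CD276 probe had a brightness of 52.9, 41.8 and 36.5 in shSCRM cells and of 35.2, 28.3 and 24.4 in silenced cells, over a local background of 14 to 20. Its Cy5 signal was well above background on every array, and its Cy3 signal with hairpins 1 and 2 only. Its log2 ratios were -0.00, 0.08 and 0.13, with a mean of 0.07 ± 0.07. By the scanner software's ratios, which carry no offset, it stood at 0.00, 0.24 and 0.50, and the brighter probe at -0.89, -0.51 and -0.56. With either background correction the dimmer probe lay near 0 with hairpin 1 and above 0 with hairpins 2 and 3, where the brighter one was below 0.

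**Figure D1:**
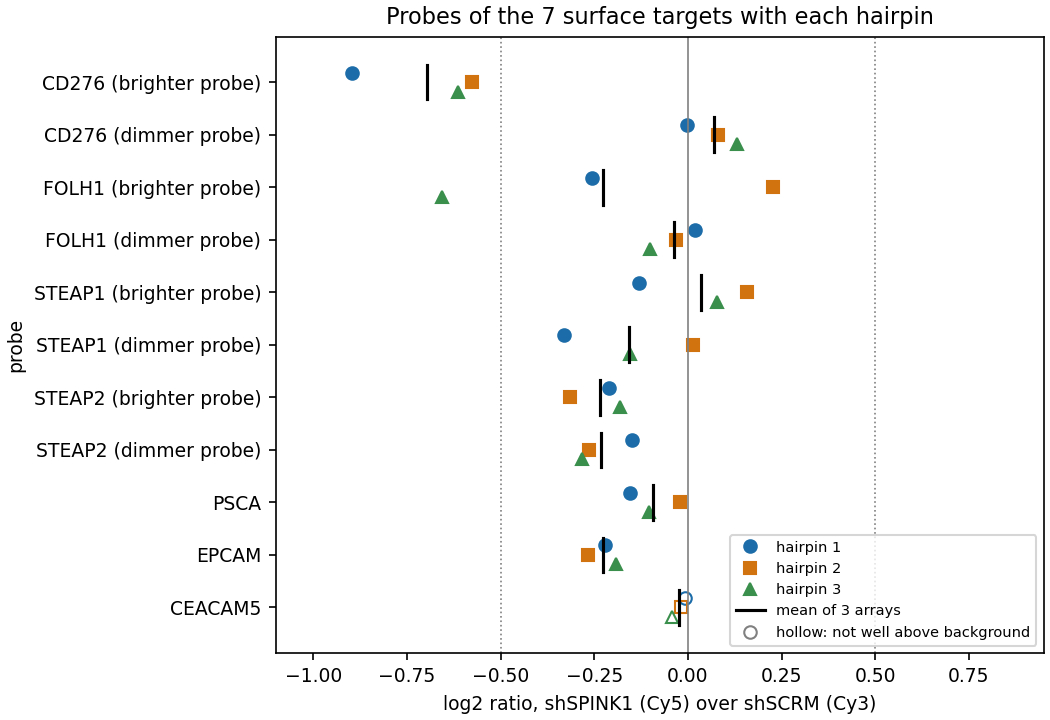
Log2 ratio of shSPINK1 over shSCRM for all 11 probes of the 7 surface targets, with 1 point per hairpin and array, the mean of the 3 arrays as a bar, and dotted lines at 0.5 on either side of 0. The brighter CD276 probe lies beyond the lower line on every array, the dimmer one lies around 0, and the brighter FOLH1 probe spreads from -0.66 to 0.23; hollow points, for CEACAM5, were not well above background.

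The mean of the brighter CD276 probe was lower than that of the dimmer one by 0.77 on the log2 scale, and the difference was -0.89, -0.66 and -0.75 with hairpins 1, 2 and 3. Among the 3561 genes with more than 1 kept probe, the brightest and the next probe differed by a median of 0.10 in size. Only 5 of these genes, CD276 among them, differed by as much as CD276, which is 0.140%. With the scanner software's ratios the CD276 difference was -0.90, and 1.38% of genes differed by as much. CD276 was chosen for its low value, which is that of the brighter probe. A large difference was favoured by that choice, so these shares describe CD276 and are no test. Brightness and distance to the end of the transcript differ between the probes. The forms of the transcript that they read may differ as well, though both are annotated to the same one. The part of each in the difference was not tested.

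**Figure D2:**
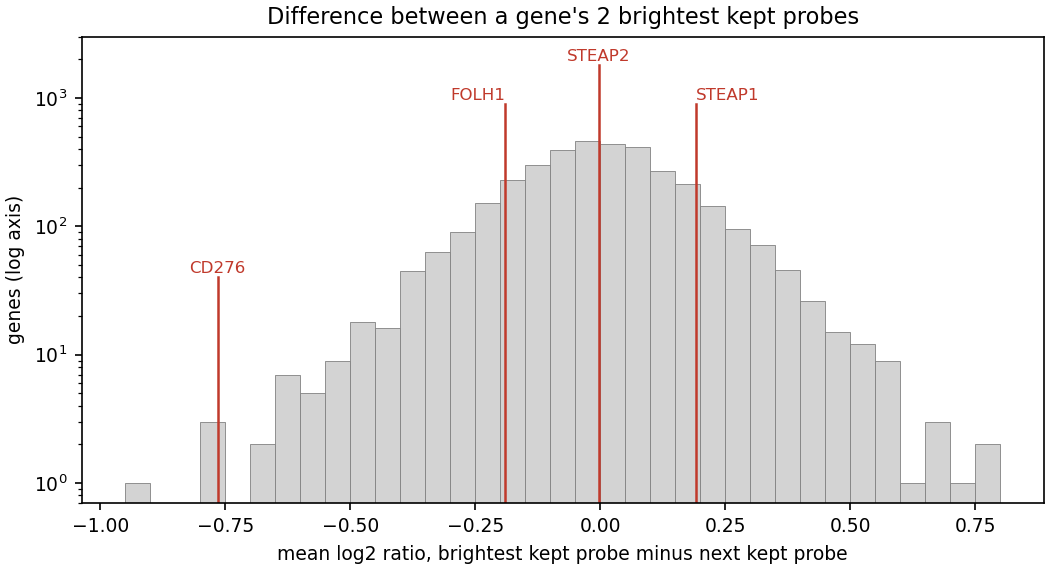
Number of genes (log axis) by the difference in mean log2 ratio between the brightest kept probe and the next one, for 3561 genes with more than 1 kept probe, in steps of 0.05. CD276 stands at -0.77 in the lower tail, and FOLH1 (-0.19), STEAP1 (0.19) and STEAP2 (-0.00) stand within the main body.

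FOLH1 differed between the hairpins more than any other target. Its brighter probe, at the end of the coding part, had a brightness of 3000, 2560 and 2980 in shSCRM cells and of 1950, 2120 and 1270 in silenced cells. The log2 ratios were -0.26, 0.23 and -0.66, so FOLH1 was lower with hairpins 1 and 3 and higher with hairpin 2. The mean was -0.23 ± 0.44. An SD as large was found in 67 genes, or 0.393%, where the median SD over all genes was 0.09. Without hairpin 3 the mean was -0.01, and without hairpin 2 it was -0.46.

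The dimmer FOLH1 probe lies upstream, on the transcript NM_001193472, and had a Cy3 brightness of 62.4 to 65.8 and a Cy5 brightness of 33.6 to 44.6. Its log2 ratios were 0.02, -0.03 and -0.10, and those of the scanner software were 0.02, 0.05 and -0.35. Hairpin 3 was the lowest on both probes, while with hairpin 2 the normalized ratio of the brighter probe was 0.23 and that of the dimmer one -0.03.

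FOLH1B is a near-identical copy of FOLH1 elsewhere on chromosome 11, and its array probe lists 4 RefSeq transcripts, of which 3 are transcripts of FOLH1 itself. This probe gave log2 ratios of -0.31, 0.14 and -0.84, the same order of hairpins as the brighter FOLH1 probe. RNA of the copies may not be separated by these probes, so values of FOLH1 and FOLH1B are uncertain as to the gene they come from.

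STEAP1, a cell surface antigen of prostate cancer on chromosome 7, had the brightest probe among the targets, with a brightness of 4110, 3310 and 3770 in shSCRM cells and of 2950, 2620 and 2710 in silenced cells. The log2 ratios were -0.13, 0.16 and 0.08, and the mean of 0.04 ± 0.15 turned negative under 4 of 10 alternative settings. The dimmer probe, annotated to both STEAP1 and STEAP1B, had a Cy3 brightness of 2030 to 2120 and log2 ratios of -0.33, 0.01 and -0.15. Its mean was -0.16 ± 0.17. Each probe was lowest with hairpin 1 and highest with hairpin 2, and the dimmer probe lay below the brighter one on every array, by 0.20, 0.15 and 0.23. The STEAP1B probe gave -0.31, -0.09 and -0.19, with a mean of -0.20 ± 0.11, closer to the dimmer STEAP1 probe than to the brighter one on all 3 arrays.

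**Figure D3:**
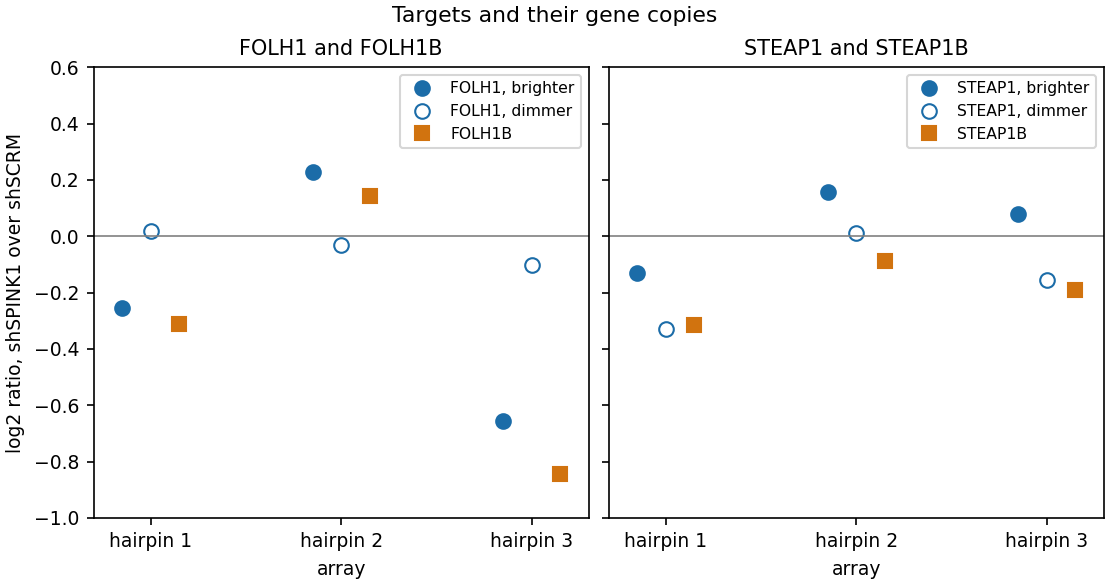
Log2 ratio of shSPINK1 over shSCRM by array for the probes of FOLH1 with FOLH1B (left) and of STEAP1 with STEAP1B (right). FOLH1B follows the brighter FOLH1 probe from 0.14 with hairpin 2 to -0.84 with hairpin 3, and STEAP1B lies near the STEAP1 probe that is annotated to both genes.

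STEAP2, a neighbour of STEAP1 on chromosome 7 and a metalloreductase of iron and copper, was below 0 on both of its probes. The brighter probe had a brightness of 2690, 2680 and 2530 in shSCRM cells and of 1800, 1510 and 1510 in silenced cells, and log2 ratios of -0.21, -0.31 and -0.18. The dimmer probe, at a Cy3 brightness of 79.1 to 98.2, gave -0.15, -0.26 and -0.28. Both means were -0.23 ± 0.07. The scanner software's ratios of the dimmer probe were -0.22, -0.67 and -0.64, so without the offset the dimmer probe lay 0.24 lower in mean than the brighter one.

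EPCAM, on chromosome 2, had a brightness of 2330, 2240 and 2220 in shSCRM cells and of 1540, 1300 and 1310 in silenced cells. The log2 ratios were -0.22, -0.27 and -0.19, with a mean of -0.23 ± 0.04, the smallest spread of any measured target. The mean was 0.01 when the scanner software's processed signals were centred on the array median. In that setting the median of all measured genes was 0.17, so the sign of EPCAM is relative to that value.

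PSCA, a lipid-anchored antigen of prostate and bladder epithelium, was dim, with a brightness of 75, 61.6 and 67.6 in shSCRM cells and of 40.5, 37.1 and 35.6 in silenced cells. The log2 ratios were -0.15, -0.02 and -0.10, with a mean of -0.09 ± 0.07, and the scanner software gave -0.50, -0.01 and -0.31. CEACAM5 was not well above background in either channel on any array, with a Cy3 brightness of 27 to 33.2 over a background of 20 and a Cy5 brightness of 15 to 20.5 over a background of 15.5 to 16. Its ratios are plotted for completeness and are read no further.

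**Figure D4:**
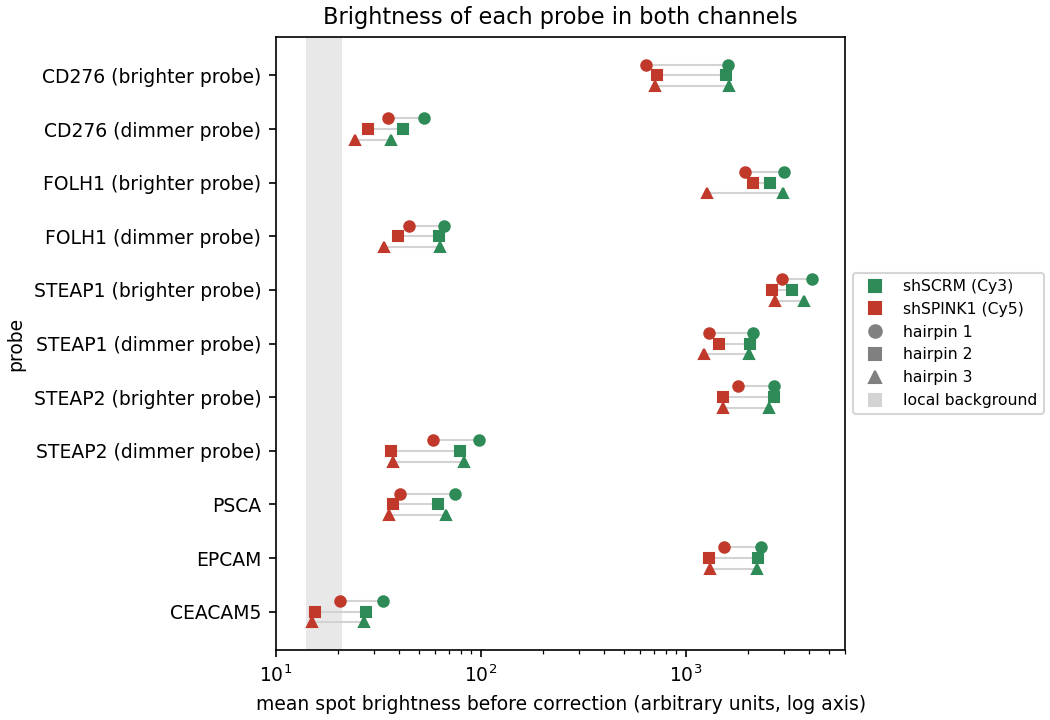
Mean spot brightness before any correction (log axis, arbitrary units) of the 11 probes in shSCRM cells (Cy3) and silenced cells (Cy5), with 1 symbol shape per hairpin and the range of the local background in grey. The dimmer probes of CD276, FOLH1 and STEAP2 and the probes of PSCA and CEACAM5 lie below 100; the values precede the balancing of the channels, in which Cy5 lies below Cy3 for every probe, and brightness is not comparable between probes.

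Of the 6 measured targets, 4 (CD276, STEAP2, PSCA and EPCAM) had log2 ratios below 0 on all 3 arrays and none was above 0 on all 3, where 29.0% and 21.3% of all measured genes were. The median of the 6 means was -0.23, and that of all measured genes was -0.01. At an adjusted p under 0.05 by limma with no limit on size, 3 of the 6 (CD276, STEAP2 and EPCAM) were lower and 0 higher, where 8.72% of all genes were lower and 4.77% higher. The 3 became 0 with the scanner software's ratios, with centred processed signals and with the deposited value table. They became 1 without background correction or without hairpin 3, 2 without hairpin 2, and 6 with median centring in place of loess. Median centring lowered the median of all genes to -0.23. Under it 11009 of the 17061 genes were lower at an unadjusted p under 0.05 by limma. The genes were chosen with these ratios known, and CD276, the gene seen to fall, is 1 of the 3. The counts therefore describe the targets only and are no test of them. In order from the lowest mean, CD276 stood apart, and STEAP2, FOLH1 and EPCAM lay within 0.01 of each other, which is less than the SD of any of them.

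Genes around each target were counted from 4 lists. In the B7 and butyrophilin family of T cell ligands, to which CD276 belongs, 8 of 19 genes were measured and 0 were called lower or higher by limma, with or without the limit on size. At an unadjusted p under 0.05, 1 was lower and 0 higher, where 18.4% of all measured genes were lower and 11.3% higher. The median of the 8 was 0.00, from -0.17 for BTN2A2, a butyrophilin, to 0.08 for VTCN1, the B7 member B7-H4. Both were dim, and without the offset the ratios were wider: the scanner software gave -0.68, -0.31 and -0.17 for BTN2A2, at a Cy3 brightness of 70.2 to 86.3, and -0.37, 1.35 and 1.58 for VTCN1, at 33.5 to 45.7. BTN2A2 was below 0 with every hairpin, and VTCN1 was below 0 with hairpin 1 and above 0 with the others on both scales. CD274 and PDCD1LG2, the ligands of PD-1, were not well above background; they are named after their values were seen.

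Of 33 close relatives of the targets in the FOLH1, STEAP, Ly6 and CEACAM families 12 were measured, and 0 were called by limma with or without the limit on size. At an unadjusted p under 0.05, 2 were lower and 1 higher, where 18.4% and 11.3% of all measured genes were. Their median was -0.03, between -0.34 for FOLH1B and 0.32 for LYNX1, a lipid-anchored relative of PSCA with log2 ratios of -0.08, 0.47 and 0.57. A dimmer kept probe of LYNX1 gave -0.13, 0.02 and 0.03, with a mean of -0.02. By the scanner software that probe stood at -0.45, 0.26 and 0.16. Without hairpin 1, 1 of the 12 was called higher, and without hairpin 2, 1 was called lower.

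Among 17 genes for partners of EPCAM and for the proteases that cut it, 16 were measured, 1 was called lower and 0 higher, and the median was -0.13. PSENEN, a subunit of the gamma-secretase that cleaves EPCAM within the membrane, had log2 ratios of -0.25, -0.70 and -0.66. Its mean was -0.54 ± 0.24, with an adjusted p of 0.0132 by limma, and the call was lost without hairpin 2 or without hairpin 3. It was also lost with the scanner software's ratios, with centred processed signals and with the deposited table. With no limit on size, 5 of the 16 were lower and 0 higher, where 8.72% and 4.77% of all measured genes were. At an unadjusted p under 0.05 by limma there were 8 and 2, where the shares of all genes were 18.4% and 11.3%. The 5 became 0 with the scanner software's ratios, with centred processed signals and with the deposited table. They became 3 without background correction or without hairpin 2, and 2 without hairpin 3. With median centring, which lowered the median of all genes to -0.23, they became 15. The 5 genes were PSENEN, APH1A, another subunit of gamma-secretase (-0.47), the tight junction claudins CLDN3 (-0.41) and CLDN7 (-0.23), and SPINT1, an inhibitor of membrane serine proteases (-0.22). A dimmer probe of APH1A stood closer to 0, at -0.15, -0.10 and -0.24, and at -0.31, -0.22 and -0.495 by the scanner software. The highest mean was 0.15, for ADAM10, a protease that sheds membrane proteins, whose dim probe stood at 0.58, 0.11 and 0.26 by the scanner software.

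Of 50 other surface targets of tumour therapy 34 were measured, 1 was called lower and 0 higher, and the median was -0.06. NECTIN2, an adhesion molecule named PVRL2 on the array, had log2 ratios of -0.50, -0.66 and -0.38 on its brighter probe, with a mean of -0.51 ± 0.14 and an adjusted p of 0.00715 by limma. The call was lost without background correction and with the mean of the kept probes. It was also lost with the scanner software's ratios, with centred processed signals and with the deposited table. As with CD276, its dimmer probe stood closer to 0, at -0.13, -0.14 and 0.00, while the scanner software's ratios of that probe were -0.67, -0.55 and 0.06. The highest mean was 0.27, for F3, or tissue factor, with scanner software ratios of 0.59, -0.02 and 0.96. With no limit on size, 7 of the 34 were lower and 0 higher, where 8.72% and 4.77% of all measured genes were. At an unadjusted p under 0.05 by limma there were 11 and 2, where the shares of all genes were 18.4% and 11.3%. The 7 became 0 with the scanner software's ratios, with centred processed signals and with the deposited table. They became 4 without the filter on dim probes and 2 without hairpin 3. With median centring, which lowered the median of all genes to -0.23, they became 24.

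**Figure D5:**
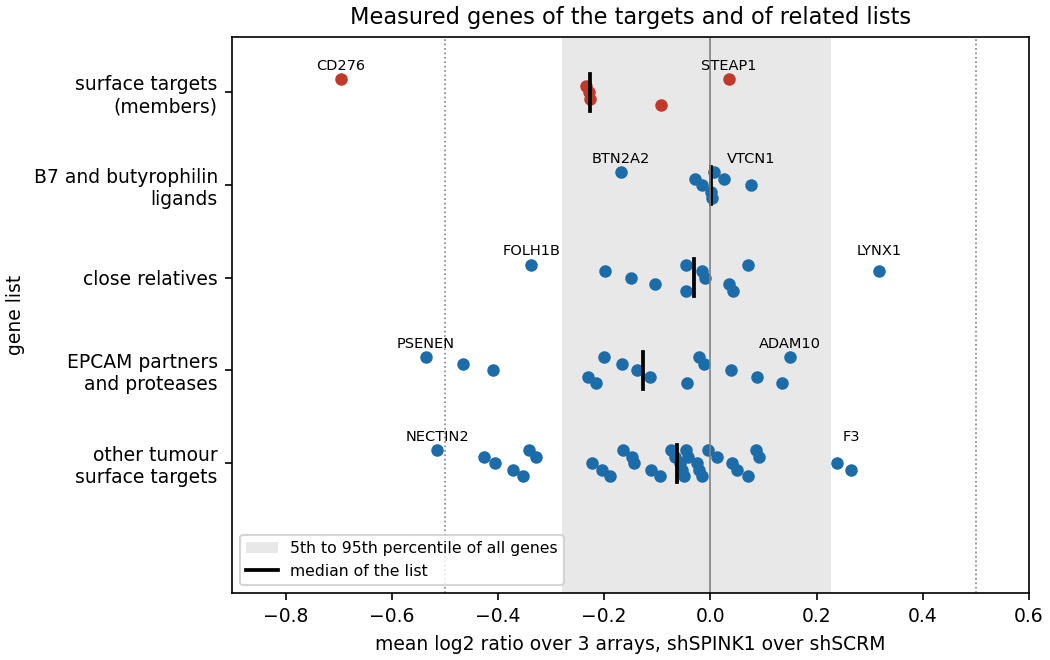
Mean log2 ratio over 3 arrays for the 6 measured surface targets (red) and for the measured genes of 4 related lists (blue), each with its median as a bar, the 5th to 95th percentile of all genes (-0.28 to 0.23) in grey and dotted lines at 0.5 on either side of 0. CD276, PSENEN and NECTIN2 lie beyond the lower line, and no gene lies beyond the upper one.

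The genes with a pattern most like that of CD276 were found by the distance between the log2 ratios of the 3 arrays, over 17059 other genes. The nearest were NAP1L4, a histone chaperone (distance 0.12), DDR1, a collagen receptor (0.13), PNRC1, a coregulator of nuclear receptors (0.15), SLC4A2, an anion exchanger (0.19), and the transcript ENST00000451609 (0.19). Like CD276, all 5 were lowest with hairpin 1, at -0.79 for NAP1L4, -0.79 for DDR1 and -0.80 for PNRC1. A choice by distance favours this likeness, so it is no separate result. Each gene stood here by its brightest kept probe. For DDR1 the mean of that probe minus that of the next one was -0.66, and for CD276 it was -0.77.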

How the data were processed

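RNA of 22RV1 cells was compared on 3 two-color arrays, 1 per hairpin. The authors deposited scanner files with the intensity of each spot and its local background in both channels and a log10 ratio of Cy5 over Cy3 from Feature Extraction, converted here to log2. The deposited value table held 1 log2 value per gene name and array, and served as an alternative. In R 4.3.3 with limma 3.58.1, intensities were corrected by normexp (offset 50, all spots), control spots were left out, flagged outliers set aside, loess run within arrays and spots of a probe averaged. A probe was kept when 1 of its channels, the same on all 3 arrays, was well above background (21443 of 58201 probes); the brightest stood for its gene. Mean log2 ratios were fitted against 0 with Benjamini-Hochberg adjustment over 17061 genes. The SDs and p-values measure the spread between arrays only, since separate shSCRM cultures are not stated, and the number of arrays limits the precision. The genes and lists were chosen with earlier results of these data known. The rule for named genes took all targets, called genes, the lowest and highest of each list, and the 5 genes nearest CD276. PVRL2 was renamed NECTIN2, and transcripts were assigned to genes, through a RefSeq table of another build, used for names only. The fit was tested on simulated data.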

Additional observations from a re-analysis of the deposited data

How the results depend on the processing

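Across 10 alternative settings the mean log2 ratio of CD276 remained below 0, between -1.05 and -0.31, and 0 of the targets were called higher in any of them. The count of targets called lower, 1 of 6, was also 1 without background correction, without the filter on dim probes and without each replicate. It was 0 with the Feature Extraction log ratio, with processed signals centred on the median, with the deposited value table and with the mean of the kept probes, and 4 with median centring. The mean of CD276 was -0.49 with processed signals centred on the median, -0.38 with the deposited value table and -1.05 with median centring. It was -0.31 with the mean of the kept probes, which includes the dimmer probe. The deposited table gave -0.44, -0.13 and -0.56 with hairpins 1, 2 and 3. With hairpins 1 and 2 this lay between the scanner software's ratios of the 2 probes, and with hairpin 3 at the brighter probe's. The deposited values of FOLH1, STEAP1 and STEAP2 lay between the scanner software's ratios of their 2 probes with every hairpin. A dimmer probe may therefore enter the deposited values as well. This and other causes were not tested. Median centring in place of loess moved the median of all genes to -0.23, and centred processed signals moved that of the measured genes to 0.17, so changes under them are relative to those values. Over all genes, 67 were called lower and 57 higher. The counts lower and higher were 3 and 0 with the Feature Extraction log ratio (809 genes past 0.5 at an unadjusted p under 0.05 by limma), 3 and 0 with centred processed signals (1365) and 3 and 0 with the deposited table (712). They were 1963 and 2 with median centring and 1487 and 814 with no limit on size, and 34 were called higher with the mean of the kept probes. Without each replicate in turn, 69 to 96 were called lower and 47 to 129 higher, with both highest counts without replicate 1. None of the listed relatives, partners and other targets was called with the Feature Extraction log ratio, with centred processed signals or with the deposited table, while with median centring 2 relatives, 7 EPCAM partners and 8 other targets were called lower, against 0, 1 and 1. STEAP1 changed sign, to -0.03 with the deposited table, -0.31 with median centring, -0.06 with the mean of the kept probes and -0.03 without replicate 2. No paired analysis was possible because no second group of arrays shares the replicate numbers; the log ratio already pairs both RNAs within an array.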
